A study of Mus musculus with 10 samples.

Results

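Sin3a occupancy was compared between mouse pre-iPSCs that carried a Sin3a transgene together with added Nanog and pre-iPSCs that carried the Sin3a transgene with an empty vector. The comparison used all peaks of the Sin3a peak lists of these lines, 18231 in the Nanog + Sin3a cells and 17168 in the Sin3a + EV cells, which together are 35399 of the 110170 peaks of the series. Peaks of the lists were matched where they shared 1 base or more, and a match was called one to one where neither peak touched a further peak of the other list. The 74771 peaks of FLAG-tagged Nanog, precipitated with antibody F1804, from the Nanog + EV cells and the Nanog + Sin3a cells, served only to annotate the Sin3a sites.

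The pre-iPSCs are partly reprogrammed cells made from female neural stem cells of strain 129/MF1 with an Oct4-GFP-IRES-puro reporter, and were grown in serum with LIF. All lines were stably transfected with PiggyBac transposon vectors, in which the broadly active CAG promoter drives the transgene, and then drug selected. The Sin3a + EV cells received Sin3a plus empty vector (EV), the Nanog + EV cells FLAG-tagged Nanog plus empty vector, and the Nanog + Sin3a cells received FLAG-tagged Nanog plus Sin3a. Ectopic Sin3a was therefore common to both sides of the comparison, and only ectopic Nanog differed. Sin3a was precipitated with antibody ab3479 in 2 replicates per line, and whether these were separate cultures is not stated. The authors gave a single list per line and antibody, with no replicate values, so no test across replicates could be made, and cell line, library and added Nanog cannot be told apart. The identity of the cells was not checked against marker genes, since coordinates are those of mouse build mm9 and no annotation of that build was used here. For the same reason sites are given by position, without gene names. In the plots these lines are named Sin3a line, Nanog line and Nanog + Sin3a line.

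Sin3a is a scaffold protein without DNA binding of its own. It brings histone deacetylases HDAC1 and HDAC2 to chromatin through sequence-specific factors and is a classical co-repressor, although its complex is also found at active promoters. Nanog is a homeodomain transcription factor of the pluripotency network, and forced Nanog expression helps pre-iPSCs to complete reprogramming. The comparison asks whether Sin3a took other sites, or other strengths, shapes and positions at the same sites, when Nanog was added.

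Most Sin3a sites were found in both lines, and sites of 1 line only were narrow and weak. One-to-one pairs numbered 12851, which is 74.9% of the peaks of the Sin3a + EV cells (95% Wilson interval 74.2 to 75.5%) and 70.5% of those of the Nanog + Sin3a cells (69.8 to 71.1%). A further 1611 peaks of the Sin3a + EV cells and 1809 of the Nanog + Sin3a cells were shared in a more complex way. In 603 regions 1 peak of the Sin3a + EV cells met 2 or more peaks of the Nanog + Sin3a cells, in 414 regions the reverse held, and in 79 regions both lines had several peaks. No region held more than 3 peaks of the Sin3a + EV cells or more than 4 of the Nanog + Sin3a cells. Peaks without any counterpart were 2706 in the Sin3a + EV cells (15.8%) and 3571 in the Nanog + Sin3a cells (19.6%), but they covered only 8.02% and 9.91% of the bases in their lists. Of these 2706 and 3571 peaks, 159 and 143 had a −log10 q of at least 10. A match by summits within 200 bp instead left 4789 and 5844 peaks without a counterpart.

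At shared sites the strength order was kept to a large degree. The strength of each peak was ranked by the authors' −log10 q, the significance of the summit adjusted over its list, among the 12851 pairs only, from percentile 0 for the weakest to 100 for the strongest. Ranks over the same sites were used because values of different lists are not on 1 scale. Over pairs the percentile ranks of the lines had a Pearson correlation of 0.81, a description across sites that share their control and their lists. The median shift, Nanog + Sin3a cells minus Sin3a + EV cells, was 0.05 points, and the central 90% of pairs lay between -29.8 and 29.99 points. Of the 2577 pairs at or above percentile 80 in the Sin3a + EV cells, 72.3% were also at or above it in the Nanog + Sin3a cells, and 52 had fallen below percentile 50. In the other direction 45 pairs went from below percentile 50 to percentile 80 or above.

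**Figure D1:**
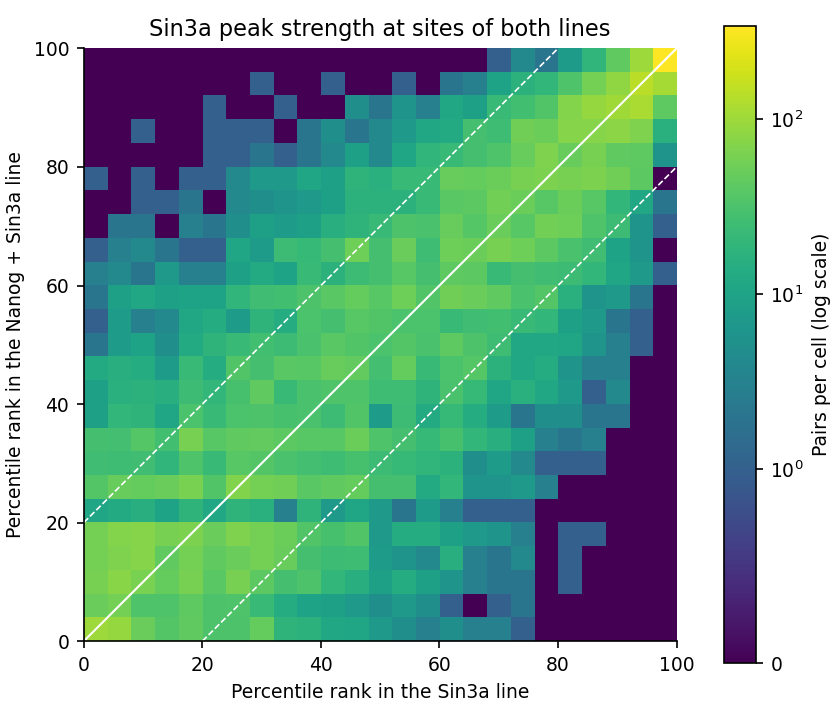
Percentile rank of each one-to-one Sin3a site in the Sin3a + EV cells (x axis) and in the Nanog + Sin3a cells (y axis), with colour giving the number of the 12851 pairs per cell on a log scale. The solid line marks equal rank and the dashed lines a move of 20 points. Pairs spread widely in the middle of the range and draw together at the strong end.

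Moves of 20 percentile points or more were about as frequent upwards as downwards. Rank was higher by at least 20 points in the Nanog + Sin3a cells at 1525 pairs (11.9%) and lower by at least 20 points at 1553 pairs (12.1%). Such moves were most frequent at sites of middling strength. A pair whose mean rank is near either end of the scale has little room to move, so part of this pattern is fixed by the ranking. Pairs were ordered by mean rank and cut into 5 equal groups. In the second weakest of these groups, 20.4% rose and 20.1% fell by that much, against 1.44% and 1.25% in the strongest group.

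The moves were then set against counting error. The number of ChIP fragments over each summit was recovered from the authors' fold and −log10 p, and the share of a site's fragments that came from the Nanog + Sin3a cells was given an exact binomial interval. Over all pairs this share was 45.8%, from 608643 fragments in the Nanog + Sin3a cells and 719537 in the Sin3a + EV cells, and the medians per summit were 43 and 50 fragments. The 95% interval lay above the pooled share at 243 pairs (1.89%) and below it at 256 pairs (1.99%). An exact 95% interval misses the true share in at most 5% of sites, beside which 499 pairs in all (3.88%) were outside. Duplicated reads cannot be seen in these files and would widen the error. The share of pairs outside their interval rose with strength, from 0.272% in the weakest group to 5.76% in the strongest. Median fragments rose too, from 33 in the Sin3a + EV cells and 30 in the Nanog + Sin3a cells to 85 and 70. More fragments give narrower intervals, so smaller departures are seen at strong sites. The groups' own shares also ran from 46.8% in the weakest to 45.1% in the strongest. The rise therefore does not show that strong sites changed more. Between 120 and 130 Mb on chromosome 6, 16.4% of 110 pairs lay above the pooled share. Of the 1525 pairs that rose by 20 points, 202 were outside in the same direction, and of the 1553 that fell, 184 were. The requirement of a called peak in both lists removes sites that were very low in 1 line, so these counts hold for shared sites only.

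The 4 pairs of highest mean −log10 q over the lists were near the top of both, which this choice favours, so their ranks test nothing. On chromosome 7 at 6362694-6363278, the top site of both lists, the summit held 310 fragments in the Sin3a + EV cells (exact Poisson interval 276 to 347) and 292 in the Nanog + Sin3a cells (259 to 327). The share from the Nanog + Sin3a cells was 48.5% (44.4 to 52.6%), within counting error of the pooled share. On chromosome 19 at 4988927-4989476 the numbers were 272 and 285, a share of 51.2% (46.9 to 55.4%) that lay above the pooled share, while the percentile rank moved by 0.0078 points. The sites on chromosome 2 at 38273378-38273962 (308 and 273 fragments) and on chromosome 4 at 21639233-21639783 (235 and 209 fragments) were within counting error. All of these had FLAG-Nanog peaks in both FLAG lists, as did 10951 of the 12851 pairs.

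The largest rises in rank were from weak to strong. On chromosome 11 at 61318546-61318846, a site of 301 bp with 29 fragments (19.4 to 41.6) in the Sin3a + EV cells had 56 fragments (42.3 to 72.7) and a width of 654 bp in the Nanog + Sin3a cells. Its percentile rank went from 1.07 to 79.6, and 65.9% of its fragments came from the Nanog + Sin3a cells (54.8 to 75.8%). A site on chromosome 2 at 157385964-157386296 had 35 and 71 fragments and moved from percentile 20.1 to 91.9. On chromosome 6 at 128795299-128795727, inside a stretch of chromosome 6 described below, the fragments went from 39 to 65 and the rank from 10.8 to 84.2. The other rises of this group were on chromosome 7 at 26064088-26064333 (30 and 57 fragments), chromosome 15 at 82930479-82930778 (33 and 48) and chromosome 9 at 121765992-121767100 (43 and 64). All 6 sites held a FLAG-Nanog peak in the Nanog + EV cells as well as in the Nanog + Sin3a cells, as did 10951 of the 12851 pairs. At all 6 the fragment share lay above the pooled share.

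The largest falls were of the same size. On chromosome 1 at 187155788-187156553 the summit held 75 fragments (59.0 to 94.0) in the Sin3a + EV cells and 29 (19.4 to 41.6) in the Nanog + Sin3a cells. Its width went from 766 to 252 bp and its percentile rank from 81.5 to 10.1. The fragments went from 70 to 34 on chromosome 10 at 93610314-93611325, and from 62 to 24 on chromosome 3 at 113332791-113333175, where the width of 195 bp in the Nanog + Sin3a cells was the smallest of that list. The remaining falls were on chromosome 19 at 53486529-53487037 (66 and 32 fragments), chromosome 5 at 145675316-145675738 (62 and 28) and chromosome 7 at 52379569-52380622 (69 and 39). At 5 of these 6 sites the share lay below the pooled share, and on chromosome 7 it was within counting error. Of the 6, only the site on chromosome 5 lacked a FLAG peak in the Nanog + Sin3a cells. The others had one in both FLAG lists, as did 10951 of the 12851 pairs. Since the 12 sites were picked for the size of their move, their intervals describe them and test nothing.

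Rank shifts were next read by whether Nanog sat at the site. A FLAG-Nanog peak of both FLAG lists was found at 10951 of the 12851 pairs, of the Nanog + EV cells only at 994, of the Nanog + Sin3a cells only at 193 and of neither at 713. The median shift was -0.01 points (-0.21 to 0.23) at sites with FLAG in both lines and 0.99 points (-0.06 to 2.80) at sites with FLAG in neither. It was 0.44 points (-0.81 to 2.16) at sites with FLAG in the Nanog + EV cells only and -0.81 points (-3.63 to 5.30) at those with FLAG in the Nanog + Sin3a cells only. All 4 intervals include 0. Without chromosome 6 the interval at sites with FLAG in neither line was 0.10 to 3.15, with a median of 1.31 points, and the other 3 still included 0.

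Large rises were more frequent in the small class with FLAG in the Nanog + Sin3a cells only. There 40 of 193 pairs rose by at least 20 points, 20.7% (15.6 to 26.99%), against 11.9% of all pairs, and 24 fell by that much, 12.4% against 12.1%. The difference from the other pairs was 8.99 points (Newcombe interval 3.84 to 15.3), and 8.82 points (3.58 to 15.3) without chromosome 6. These sites were weak, at a median percentile of 22.2 in the Sin3a + EV cells, and over all pairs rises were most frequent at middling ranks. In the weakest group by mean rank 12.9% of the class rose by 20 points (7.38 to 21.7%), against 8.49% (7.30 to 9.87%) of sites with FLAG in both lines. In the next group it was 26.7% (17.1 to 39.0%) of 60 pairs against 19.5% (17.8 to 21.3%), and in the middle group 32.0% (17.2 to 51.6%) of 25 pairs against 17.5% (16.0 to 19.1%). The class was higher in each of these 3 groups and the intervals overlapped in each, and the remaining groups held too few pairs of the class. Only 5 of the 193 pairs lay above the pooled share beyond counting error, 2.59% against 1.89% of all pairs, and 0 lay below it, which allows a share of up to 1.95%. Sites with FLAG in the Nanog + EV cells only also rose more often, at 15.2% (13.1 to 17.6%).

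**Figure D2:**
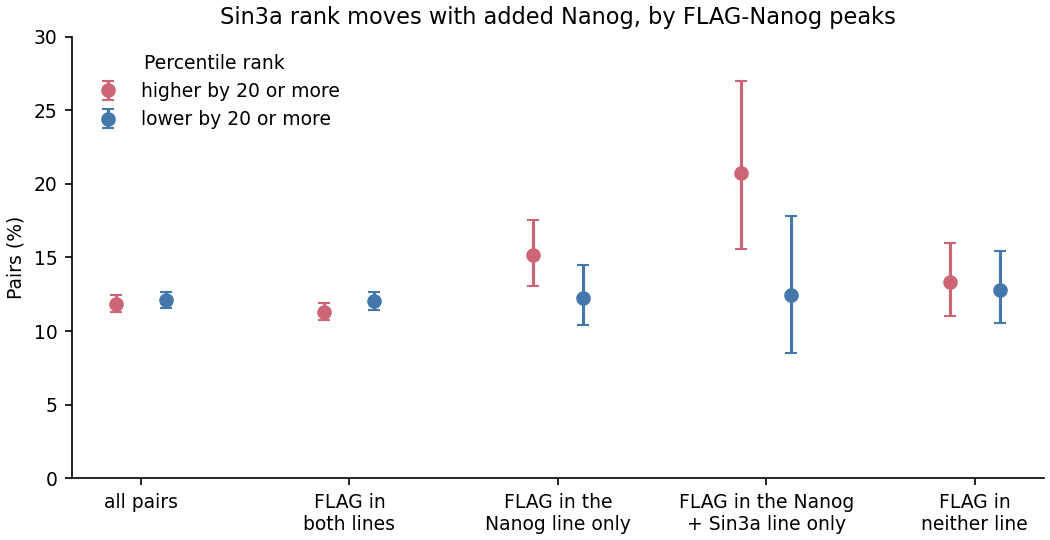
Percentage of one-to-one pairs whose Sin3a percentile rank was at least 20 points higher (red) or lower (blue) in the Nanog + Sin3a cells, for all pairs and by the FLAG-Nanog peaks at the site. Bars are 95% Wilson intervals over sites, and the class with FLAG in the Nanog + Sin3a cells only stands highest at 20.7% with the widest interval.

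Sin3a fragment shares differed little with the strength of the Nanog peak, and were lower at strong Nanog peaks than at weak ones. Pairs with exactly 1 FLAG peak of the Nanog + Sin3a cells were divided into 5 equal groups by the rank of that FLAG peak. From the weakest to the strongest group, the share of Sin3a fragments from the Nanog + Sin3a cells was 46.3%, 45.9%, 45.6%, 45.7% and 45.5%. The median rank shift had an interval that included 0 in all 5 groups, with 0.73 points (-0.06 to 1.40) in the weakest and -0.32 points (-0.83 to 0.07) in the strongest. Rises of 20 points were at 13.6% (12.2 to 15.2%) in the weakest and 9.61% (8.40 to 11.0%) in the strongest group. Falls of 20 points were at 12.2% and 12.7% in these groups. With the FLAG list of the Nanog + EV cells, which comes from other cells than either Sin3a list, the share went from 46.5% (46.3 to 46.7%) to 45.4% (45.2 to 45.6%), and the median shift in the strongest group was -0.59 points (-1.01 to -0.09). With that list rises were at 14.5% in the weakest and 9.88% in the strongest group, and falls at 12.4% and 12.6%. Strong Nanog peaks lay at stronger Sin3a sites, whose median percentile in the Sin3a + EV cells was 65.1 in the strongest FLAG group of the Nanog + Sin3a cells and 35.3 in the weakest. The share also fell with Sin3a strength itself, from 46.8% in the weakest to 45.1% in the strongest group of pairs, so the relation to Nanog was not separated from Sin3a strength.

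Sin3a peaks kept their width. The median width at pairs was 556 bp in the Sin3a + EV cells and 565 bp in the Nanog + Sin3a cells, and the median log2 ratio of widths was -0.0018 (-0.0089 to 0.0048). Width at least doubled at 278 pairs (2.16%) and at least halved at 302 (2.35%). The narrowest peaks differed slightly, with a median log2 ratio of -0.04 (-0.06 to -0.02) at the 2672 pairs under 400 bp in both lines. The smallest peak of the Nanog + Sin3a list was 195 bp wide and that of the Sin3a list 209 bp.

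Width moved with rank. Pairs that rose by 20 points went from a median of 449 to 542 bp, with a median log2 ratio of 0.19, and pairs that fell by as much went from 531 to 445 bp, with a median log2 ratio of -0.19. Over all pairs the Pearson correlation of rank shift and log2 width ratio was 0.30, a description across sites. The largest widening among sites with a −log10 q of at least 10 in both lines was on chromosome 19 at 9072053-9072444, where the peak went from 392 to 1469 bp and the summit from 68 to 41 fragments. On chromosome 6 at 124881336-124881754 the width went from 419 to 1247 bp at 57 and 52 fragments, and on chromosome 1 at 94803389-94803733 from 345 to 968 bp. The largest narrowing was on chromosome 13 at 99583583-99584779, from 1197 to 268 bp at 44 and 40 fragments, followed by chromosome 11 at 108204089-108205658 (1570 to 526 bp) and chromosome 5 at 45841034-45841969 (936 to 321 bp). At all 6 of these sites the fragment share was within counting error.

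Summits showed no net displacement, while the distance between them at single pairs reached 313 bp at the 95th percentile. The signed distance from the summit of the Sin3a + EV cells to that of the Nanog + Sin3a cells had a median of 0 bp (-1 to 2), with 6395 summits at a higher and 6357 at a lower coordinate, so the lists were not offset from each other. The median distance without sign fell from 74 bp in the weakest group of pairs to 35 bp in the strongest. Within 100 bp of each other lay 62.1% of summits in the weakest group and 82.8% in the strongest. Distances depended on width too, with a median of 40 bp for pairs under 400 bp and 69 bp for pairs of 1 kb or more. Summits more than 500 bp apart occurred at 195 pairs, 129 of them among the 1621 pairs of 1 kb or more in both lists.

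**Figure D3:**
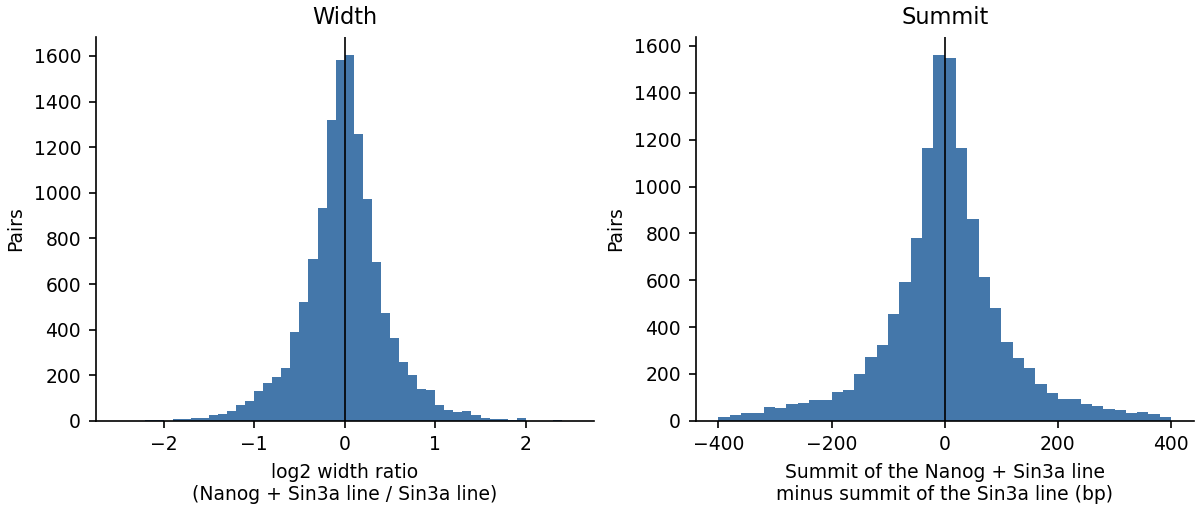
Left, log2 ratio of peak widths (x axis) at one-to-one Sin3a pairs, and right, the signed distance in bp between summits (x axis), with the number of pairs on the y axes. Both distributions are centred on 0, and distances beyond 400 bp are outside the plotted range.

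The farthest summits lay in wide peaks. On chromosome 5 at 3341602-3344737, a peak of 3136 bp in the Sin3a + EV cells and 3269 bp in the Nanog + Sin3a cells, the summits were 2250 bp apart at 73 and 64 fragments. On chromosome 10 at 119912133-119914441 they were 1834 bp apart at 66 and 54 fragments. On chromosome 11 at 68935827-68938259 they were 1659 bp apart at 73 and 52 fragments. In these 3 pairs the fragment share was within counting error.

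Sin3a summits did not lie closer to Nanog summits when Nanog was added. At the 10149 pairs with exactly 1 FLAG peak of the Nanog + Sin3a cells, the Sin3a summit of the Nanog + Sin3a cells was the nearer to the FLAG summit at 4792 pairs and that of the Sin3a + EV cells at 5267, a share of 47.6% (46.7 to 48.6%) after 90 pairs at equal distance were left out. The median distances to the FLAG summit were 86 bp and 78 bp. Where the Sin3a summits were more than 100 bp apart, the share was 44.5% (42.6 to 46.4%), and the median distances were 148 and 120 bp. With the FLAG summits of the Nanog + EV cells the share was 47.5% (46.6 to 48.5%) over 10825 pairs, so the direction did not depend on which FLAG list was used. Among pairs with a −log10 q of at least 10 in both Sin3a lists it was 49.1% (47.7 to 50.4%), an interval that includes 50%, and with the FLAG list of the Nanog + EV cells 48.2% (46.9 to 49.5%), which does not. The Nanog + Sin3a list rests on fewer fragments per summit, 43 against 50 at the median, and the part of this in the result was not tested.

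Sin3a ranks and fragment shares differed between chromosomes. DNA copy number in the lines was not analysed here, and its part in the differences between chromosomes and stretches was not tested. Median rank shifts ran from -5.85 to 6.05 points over chromosomes. The ratio of peak numbers, Nanog + Sin3a cells over Sin3a + EV cells, was 1.06 over all chromosomes and ran from 0.920 on chromosome 5 to 1.24 on chromosome 6. The fragment share from the Nanog + Sin3a cells had an interval above the pooled 45.8% on 7 chromosomes, below it on 4 and across it on 9. Chromosomes 15 and 18 were at the upper end. On chromosome 15 the share was 48.0% (47.6 to 48.4%), 425 of 621 pairs lay above the pooled share, and the median rank shift was 6.05 points (4.51 to 7.14). On chromosome 18 the share was 47.5% (47.0 to 48.1%) and the median shift 5.53 points (3.42 to 7.45) over 307 pairs. Chromosomes 10 and 5 were at the lower end, with shares of 43.7% (43.3 to 44.1%) and 44.0% (43.7 to 44.3%). Their median shifts were -5.85 points (-7.18 to -4.35) over 674 pairs and -3.38 points (-4.42 to -2.62) over 912 pairs. Among pairs with a −log10 q of at least 10 in both lists, ranked anew among themselves, the shifts of chromosomes 10 and 5 were -9.45 and -5.30 points. A point spans fewer sites there, so the sizes of these shifts are not comparable with those over all pairs. These 4 chromosomes were picked as the ends of the order of shifts, so their intervals describe them and test nothing.

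On these 4 chromosomes the presence and absence of peaks went the same way as the shifts. On chromosome 15, 89.4% of the peaks of the Sin3a + EV cells were shared (87.0 to 91.3%) but only 74.1% of those of the Nanog + Sin3a cells (71.2 to 76.8%), with 242 peaks of the Nanog + Sin3a cells only against 84 of the Sin3a + EV cells only. On chromosome 18 the numbers were 108 and 45. On chromosome 5 it was the reverse, with 151 peaks of the Nanog + Sin3a cells only against 283 of the Sin3a + EV cells only, and 78.1% of the peaks of the Sin3a + EV cells shared (75.7 to 80.3%). Chromosome 10 had 122 against 191. The X chromosome had the lowest shared share of the Sin3a + EV cells, 77.1% (71.0 to 82.1%) of 218 peaks, with 52 peaks of the Nanog + Sin3a cells only against 50 of the Sin3a + EV cells only. Widths followed too, with median log2 ratios of 0.10 on chromosome 15 and -0.10 on chromosome 5, whereas the median summit distance stayed between 46 and 59 bp on all 20 chromosomes.

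FLAG-Nanog signal on the same chromosomes was read from the FLAG lists. At the 25895 one-to-one pairs of the FLAG lists, 53.0% of the fragments came from the Nanog + Sin3a cells. The share was 53.3% (53.0 to 53.6%) on chromosome 15 and 52.2% (51.9 to 52.6%) on chromosome 18, the upper end for Sin3a. It was 53.8% (53.5 to 54.1%) on chromosome 10 and 52.4% (52.1 to 52.6%) on chromosome 5, the lower end for Sin3a. The FLAG lists compare the Nanog + Sin3a cells with the Nanog + EV cells, not with the Sin3a + EV cells. Over these 4 chromosomes the order of FLAG shares was not that of the Sin3a shares.

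**Figure D4:**
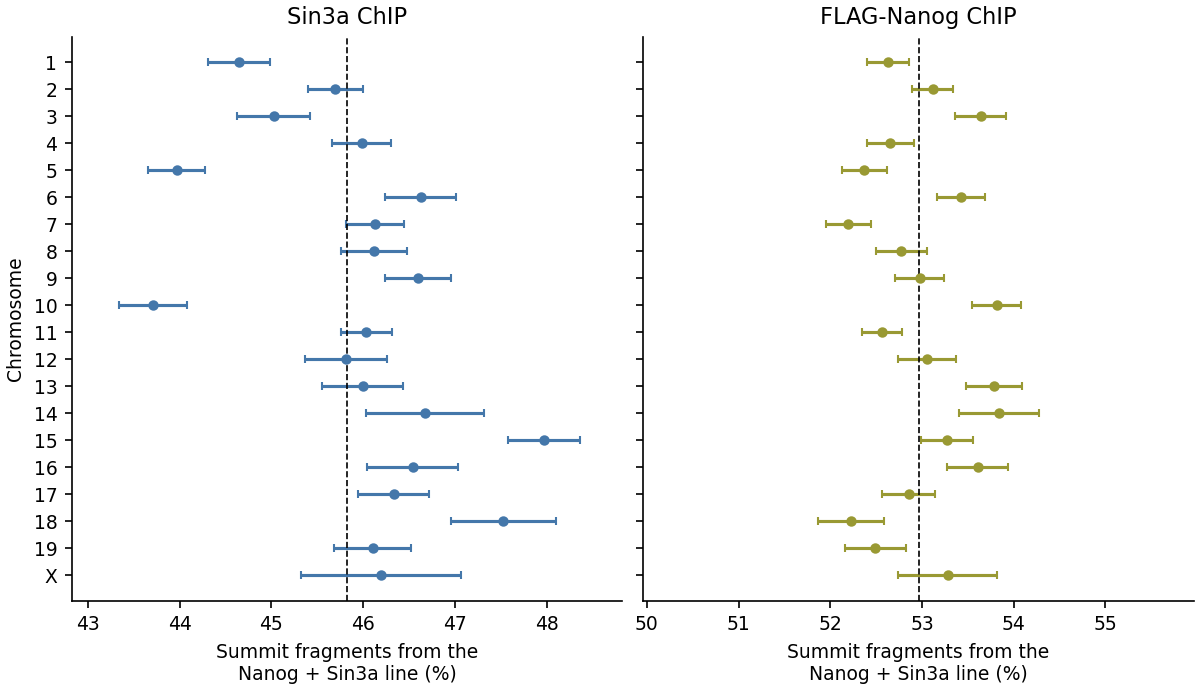
Percentage of summit fragments that came from the Nanog + Sin3a cells (x axis), by chromosome (y axis), at one-to-one pairs of the Sin3a lists (left) and of the FLAG-Nanog lists (right), with exact 95% binomial intervals for counting error. Dashed lines mark the pooled shares, 45.8% and 53.0%, and chromosomes 15 and 18 lie highest and chromosomes 10 and 5 lowest for Sin3a.

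Below the level of chromosomes, the shifts were gathered in stretches. In windows of 10 Mb with at least 20 pairs, chosen after the chromosome values were seen, the interval of the share lay above the pooled share in 32 of 194 windows and below it in 33. Chromosome 6 held windows at both ends. Its window from 120 to 130 Mb had a share of 51.0% (50.1 to 51.9%), a median shift of 14.3 points and 90 of 110 pairs with a higher rank in the Nanog + Sin3a cells, and 171 of the 297 peaks of that line there had no counterpart. Its window from 50 to 60 Mb had a share of 50.2% (48.8 to 51.5%) over 50 pairs. Its window from 30 to 40 Mb was the lowest of all, at 40.9% (39.4 to 42.3%) with a median shift of -18.5 points over 47 pairs, and 33 of the 83 peaks of the Sin3a + EV cells there had no counterpart. The window on chromosome 15 from 10 to 20 Mb was the highest, at 52.3% (50.2 to 54.4%) over 20 pairs. The windows on chromosome 1 from 160 to 170 Mb and on chromosome 10 from 110 to 120 Mb were low, at 41.0% and 41.4%.

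FLAG-Nanog peak numbers differed in the same direction as Sin3a in some of these windows and in the other direction in others. These numbers compare the Nanog + Sin3a cells with the Nanog + EV cells, not with the Sin3a + EV cells. They therefore cannot show whether Nanog and Sin3a moved together. The FLAG lists of the Nanog + EV cells and the Nanog + Sin3a cells held 38485 and 36286 peaks in all. On chromosome 6 they held 460 and 402 from 120 to 130 Mb, 114 and 219 from 50 to 60 Mb, and 144 and 119 from 30 to 40 Mb. In the named window of chromosome 15 they held 94 and 117, in that of chromosome 1 144 and 115, and in that of chromosome 10 136 and 145. Without chromosome 6, the percentages of pairs that moved by 20 points or more were 11.7% upwards and 11.9% downwards.

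Peaks of 1 line only were at Nanog sites in similar shares in both lines. A FLAG peak of the Nanog + Sin3a cells lay at 59.0% (57.4 to 60.6%) of the 3571 Sin3a peaks found only in the Nanog + Sin3a cells and at 58.4% (56.5 to 60.2%) of the 2706 found only in the Sin3a + EV cells. The difference was 0.61 points, with a Newcombe interval of -1.84 to 3.08. For the FLAG list of the Nanog + EV cells the shares were 68.3% and 68.1%, a difference of 0.26 points (-2.06 to 2.59). Without chromosome 6 the differences were -0.42 and 0.24 points. Sin3a peaks at a FLAG peak of the Nanog + Sin3a cells only made up 5.63% (4.92 to 6.43%) of the peaks found only in the Nanog + Sin3a cells and 4.693% (3.96 to 5.56%) of those found only in the Sin3a + EV cells.

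Shared Sin3a peaks lay at Nanog sites more often than peaks of 1 line only, and did so at matched strength. In the weakest group of the Sin3a + EV list, 69.5% of shared peaks and 55.6% of the others had FLAG signal called in the Nanog + Sin3a cells, and in the second strongest group these shares were 92.6% and 65.4%. In the Nanog + Sin3a cells they were 70.2% and 57.3% in the weakest group and 91.6% and 66.7% in the second strongest. Shared peaks were also wider, with median widths of 306 against 261 bp in the weakest group of the Sin3a + EV cells and 292 against 251 bp in that of the Nanog + Sin3a cells. In the second strongest groups the widths were 706 against 408.5 bp and 695 against 384 bp. A wider peak meets others more easily, and the part of width in the overlap was not tested.

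**Figure D5:**
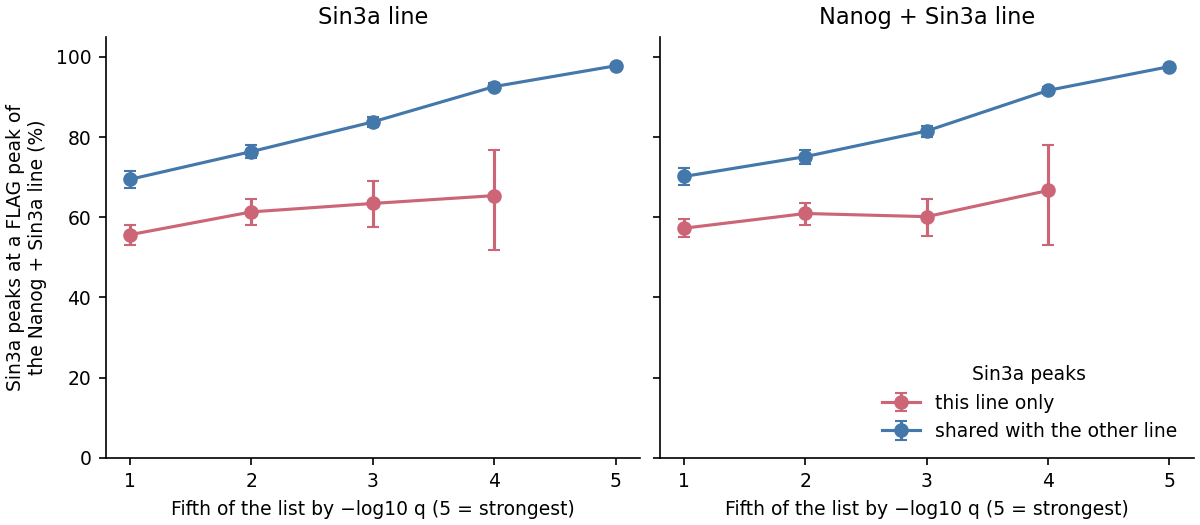
Percentage of Sin3a peaks at a FLAG-Nanog peak of the Nanog + Sin3a cells (y axis) in 5 equal groups by −log10 q (x axis, 5 is the strongest), for peaks of 1 line only (red) and peaks shared with the other line (blue), in the Sin3a + EV cells (left) and the Nanog + Sin3a cells (right). Bars are 95% Wilson intervals, groups of under 20 peaks are left out, and shared peaks lie above the others wherever both are drawn.

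Few peaks of 1 line only were strong enough to be called different from counting error. As a cautious count, the other line was granted as many fragments at the site as its own peaks without counterpart had at the median, 29 in the Nanog + Sin3a cells and 33 in the Sin3a + EV cells. Under this grant 37 of the 2706 peaks of the Sin3a + EV cells only and 38 of the 3571 peaks of the Nanog + Sin3a cells only departed from the pooled share, starting at 55 and 45 fragments. A further 4 and 12 peaks with at least 2 times the lowest background level were left out, since the grant is too small there. On chromosome 6 lay 2 of the 37 and 9 of the 38, 6 of the latter between 120 and 130 Mb. Chromosome 6 held 144 of all 2706 peaks of the Sin3a + EV cells only (5.32%). It held 351 of all 3571 peaks of the Nanog + Sin3a cells only (9.83%), 171 of them between 120 and 130 Mb. FLAG peaks of the Nanog + Sin3a cells were at 59.5% (43.5 to 73.7%) of the 37 and 65.8% (49.9 to 78.8%) of the 38, and the intervals overlap.

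The strongest peak of the Nanog + Sin3a cells only was on chromosome 6 at 47974741-47975049, 309 bp wide, with 68 fragments (52.8 to 86.2), a −log10 q of 30.4 and rank 1374 in its list. The nearest Sin3a peak of the other line was 22259 bp away. The next were on chromosome 6 at 128291742-128292641 (56 fragments), chromosome 5 at 31218334-31218670 (52 fragments) and chromosome 4 at 137772014-137772447 (52 fragments). All 4 held a FLAG peak of the Nanog + EV cells, and all but the one on chromosome 4 a FLAG peak of the Nanog + Sin3a cells. Of all 3571 peaks of the Nanog + Sin3a cells only, 68.3% and 59.0% did. In the second strongest group of that list these shares were 80.4% and 66.7% of 51 such peaks.

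In the Sin3a + EV cells the strongest peak without counterpart was also on chromosome 6, at 72166601-72166968, with 66 fragments (51.0 to 84.0), a −log10 q of 23.6 and rank 3141 in its list. It was followed by chromosome 10 at 94453388-94454391 (79 fragments), where the other line had a peak 433 bp away, chromosome 5 at 31040614-31041053 (65 fragments) and chromosome 3 at 51908039-51908994 (62 fragments). The site on chromosome 5 had no peak in either FLAG list, that of the Nanog + EV cells or that of the Nanog + Sin3a cells. The other 3 had one in both FLAG lists. Of all 2706 peaks of the Sin3a + EV cells only, 27.2% had a peak in neither FLAG list and 53.7% in both.

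Peaks of 1 line only lay on every chromosome, and some windows held many of them. The 2 Mb windows with most peaks of the Nanog + Sin3a cells only were consecutive on chromosome 6, with 40 of 101 peaks at 124 to 126 Mb, 28 of 39 at 126 to 128 Mb and 85 of 108 at 128 to 130 Mb. The Sin3a + EV cells had 67, 14 and 29 peaks in these windows. For the Sin3a + EV cells the windows with most were on chromosome 13 at 22 to 24 Mb (22 of 88 peaks), chromosome 5 at 124 to 126 Mb (18 of 79) and chromosome 6 at 30 to 32 Mb (17 of 35). Those are 25%, 22.8% and 48.6% of the peaks there, against 15.8% over the whole list. In the windows of the Nanog + Sin3a cells the percentages were 39.6%, 71.8% and 78.7%, against 19.6% over the whole list. Over all unmatched peaks, these windows included, a peak of the other line was within 1 kb of 36.3% (34.8 to 37.9%) of those in the Nanog + Sin3a cells and of 27.5% (25.9 to 29.2%) of those in the Sin3a + EV cells, at median distances of 4299 and 8791 bp.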

How the data were processed

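ChIP-seq of 10 samples gave 4 deposited peak lists, 1 per group of 2 replicates. No list of the input or IgG sample was used here. Per the submitters' processing notes, build mm9 and the tools Bowtie 1.0.0, SAMtools 0.1.19 and FastQC 0.10.1 were used. The sources used here do not give the peak caller or say if replicates were pooled. The files have no header. The deposited score is the −log10 q times 10, cut to a whole number. The deposited fold ratio is the scaled summit pileup over background, with 1 added to each, and the deposited −log10 p is a Poisson tail of that pileup, as the values show. These are the authors' values and were used within a list only.

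Fragments over each summit were solved from fold and −log10 p with list scales of 0.700 (Sin3a + EV cells) and 0.772 (Nanog + Sin3a cells). Exactly 1 number fitted at 99.9% and 99.1% of peaks, and the closest was taken elsewhere. The lists held 1.43 and 1.30 ChIP tags per control tag. Total reads were not known. Shares carry 95% Wilson intervals, differences Newcombe intervals, fragment numbers Poisson and fragment shares Clopper-Pearson intervals, and medians order-statistic intervals. All cover counting error only and take sites as independent. No test across peaks was run.

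Sites named are the 4 pairs of highest mean −log10 q, the 6 largest rises and falls in rank, the 3 extremes of width ratio (each way) and summit distance among pairs of −log10 q at least 10, the 4 strongest peaks of each list only, the 2 chromosomes at each end, and the 3 windows of 2 Mb with most peaks of 1 list. The 10 Mb windows and the fragment shares were chosen after the data were seen. Members and rules were chosen with earlier results of these data known. Alternatives were other matches, thresholds, ranking measures and leaving out chromosome 6. Coordinates are 1-based. Python 3.11.15, NumPy 2.4.6, pandas 2.3.3, SciPy 1.17.1, NetworkX 3.6.1 and Matplotlib 3.10.9 were used, and the matching, fragment and counting code was tested on simulated data.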

Additional observations from a re-analysis of the deposited data

How the results depend on the processing

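No paired analysis was possible because the lists hold no replicate values, and leaving out a replicate could not be done either. Of 72 values recomputed under an alternative, 43 stayed within the interval of the main value, or within 1.5 times a count, and 29 moved beyond it. The median shifts of the FLAG classes stayed within their intervals, but that of sites with FLAG in the Nanog + Sin3a cells only, -0.81 points, was 0.78 ranked by fold and 0.89 with the summit inside a FLAG peak. Gene lists were not run, as no mm9 annotation was used. Stricter settings leave fewer peaks, and the cause of the moves was otherwise not tested.

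The shared shares of the Sin3a + EV and Nanog + Sin3a cells (84.2 and 80.4%) were 82.9 and 78.7% where matches needed 50% of the shorter peak, 72.1 and 67.9% with summits within 200 bp, 83.3 and 82.8% with both lists limited to a −log10 q of at least 5 before matching, 82.1 and 84.6% with both limited to 10, where 7017 pairs remained, and 82.0 and 82.7% with equal numbers of top peaks. Thus which line shared more depended on the threshold. Rises and falls of 20 points (11.9 and 12.1%) were 13.3 and 13.2% ranked by fold, 13.1 and 13.5% at a −log10 q of at least 5 in both lists, and 15.8 and 16.5% at 10. At these thresholds ranks were taken anew among the 10272 and 6522 pairs kept, so 20 points span fewer sites than among all 12851. On ranks over all pairs, such moves were least frequent in the strongest group, at 1.44 and 1.25%. The median log2 width ratio was -0.011 at pairs whose rank moved by under 5 points. The median summit distance of 51 bp was 43 bp at a −log10 q of at least 10 and 49 bp under 1 kb. The Sin3a summit of the Nanog + Sin3a cells was nearer to FLAG at 44.5% of pairs with summits over 100 bp apart, against 47.6%. Among pairs with a −log10 q of at least 10 in both lists, ranked anew, the median shifts of chromosomes 10 and 5 were -9.45 and -5.30 points. With both lists limited to that value, the shared share of the X chromosome was 53.8% (40.5 to 66.7%) of 52 peaks. Peaks of the Sin3a + EV cells only (2706) were 4789 with summits within 200 bp and 159 where these had a −log10 q of at least 10 and lacked any counterpart in the whole other list. Those of the Nanog + Sin3a cells only (3571) were 5844 and 143, and 2274 with no peak of the other line within 1 kb.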
